A study of Mus musculus with 8 samples.

Results

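The marrow niche factors described here are 9 genes, Cxcl12, Kitl, Lepr, Vcam1, Angpt1, Il7, Foxc1, Ebf3 and Thpo, chosen by name from a table of 55401 mouse genes, in which each had exactly 1 row. RNA was sequenced from cortical bone, the dense shell of bone, of C57BL/6J mice. The 4 KO libraries carried UbcCre/ERT2, a drug-dependent Cre recombinase driven by the broadly active ubiquitin C promoter, together with floxed Ripk4 alleles (UbcCre/ERT2 Ripk4fl/fl), and the 4 control libraries carried the floxed alleles without Cre (Ripk4fl/fl), although their titles and the extraction text call them WT. All 8 share the 4 week time point, which the labels give without saying whether it is an age, and no drug treatment is stated in them. The labels number the samples but do not say that each came from a separate animal, so p-values measure the spread between these samples, which may be technical.

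Blood stem cells and lymphoid progenitors live in the marrow next to reticular stromal cells that carry the leptin receptor and secrete retention and survival signals. CXCL12 holds blood cells in place through CXCR4, KIT ligand keeps stem cells alive through KIT, and interleukin 7 drives early B cell growth in the mouse through IL7R. FOXC1 and EBF3 are transcription factors that, from mouse studies, maintain the reticular cells, and VCAM1 on their surface anchors blood cells that carry integrin alpha 4.

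RefSeq start-site windows (GRCm38.p6, 250 bases before and 50 after the start) were matched by symbol for 6 of the 9 genes. The windows of 3 genes are printed 5′ to 3′ for their contrast in level and spread: Cxcl12 had the highest level, Ebf3 varied widely between libraries and Thpo had the lowest level. Capitals mark matches to CCCNNGGG, the core bound by the EBF family. CCCNNGGG reads the same on both strands, and was held by 13.7% of 32851 windows. GTAAACA, a core of the FOX family searched on both strands, was held by 3.65% of them. Among the windows of the 6 genes, Ebf3 alone held 1 match to the first motif, ending before its start site, and the second was found in none. A match describes letters and not binding.
Cxcl12, chr6:117168285-117168584, plus strand: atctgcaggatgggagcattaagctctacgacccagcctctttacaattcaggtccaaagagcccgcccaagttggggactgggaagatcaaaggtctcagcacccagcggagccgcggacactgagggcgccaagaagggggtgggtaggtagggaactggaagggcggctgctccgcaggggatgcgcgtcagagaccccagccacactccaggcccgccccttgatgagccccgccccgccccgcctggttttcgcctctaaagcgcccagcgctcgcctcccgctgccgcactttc
Ebf3, chr7:137314396-137314695, minus strand: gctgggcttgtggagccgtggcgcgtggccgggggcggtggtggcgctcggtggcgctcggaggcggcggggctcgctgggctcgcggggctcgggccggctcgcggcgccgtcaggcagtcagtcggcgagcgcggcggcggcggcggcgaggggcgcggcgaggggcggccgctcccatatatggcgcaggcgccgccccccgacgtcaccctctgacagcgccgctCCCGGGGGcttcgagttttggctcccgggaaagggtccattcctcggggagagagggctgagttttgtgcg
Thpo, chr16:20734462-20734761, minus strand: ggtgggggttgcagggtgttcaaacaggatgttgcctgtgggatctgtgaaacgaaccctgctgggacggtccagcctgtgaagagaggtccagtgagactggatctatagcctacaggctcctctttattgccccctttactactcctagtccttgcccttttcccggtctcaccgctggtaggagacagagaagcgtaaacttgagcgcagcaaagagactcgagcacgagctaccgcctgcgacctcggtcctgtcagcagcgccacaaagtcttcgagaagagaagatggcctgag

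Libraries held 61092688 to 66774693 estimated counts. A value of 4 was found 7854 times and a value of 3 only 2724 times, and a value of 8 was found 4839 times against 2019 for 7. From these, 1 fragment was taken as about 4 counts. Values of 1 and 2 were also found, 4421 and 3306 times, so this unit is approximate and does not hold for every count. Ripk4 itself was at or below 12 counts, about 3 fragments, in every library (0, 12, 0 and 0 counts in KO 1 to 4, against 10, 4, 0 and 4 in control 1 to 4), so its level does not check the genotype labels. Osteoblast and osteocyte markers, which define bone tissue, were above 0 in at least 1 library for 14 of 14 and 12 of 12 genes. Mitochondrial transcripts took 5.56% to 6.09% of counts in KO and 6.17% to 16.1% in control. All 9 niche factors passed the filter on low counts. Levels are given as FPKM, fragments scaled to the length of the gene and the size of the library, so that levels of genes can be set side by side.

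None of the 9 niche factors passed edgeR's quasi-likelihood test of KO against control at an adjusted p under 0.05 over 20152 genes, with 0 higher and 0 lower. Over all genes tested 5.31% passed as higher in KO and 5.03% as lower, 10.3% in all. The members still differed among themselves in size and spread. Their log2 fold changes ran from -1.72 for Thpo to 0.26 for Ebf3, with 7 lower and 2 higher and a median of -0.10, against a median of -0.02 over all genes tested. At an unadjusted p under 0.05, 3 members were lower in KO (Kitl, Il7 and Foxc1) and none higher, where 14.0% of all genes were lower at that level and 28.1% differed in either direction. DESeq2 called 2 members lower, Il7 and Foxc1, and limma on log2(FPKM + 0.5) also called 2, Il7 and Thpo. DESeq2 called 11.0% of the 18544 genes to which it gave an adjusted p as lower and 10.3% as higher, and limma called 5.17% of 20664 genes as lower. The FPKM ranges of the groups did not overlap for 2 members, Il7 and Thpo, both lower in KO. Over all genes tested 11.5% had ranges that did not overlap with KO lower, and 9.21% with KO higher. In bulk tissue, fewer cells of a type and less RNA per cell cannot be told apart.

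**Figure D1:**
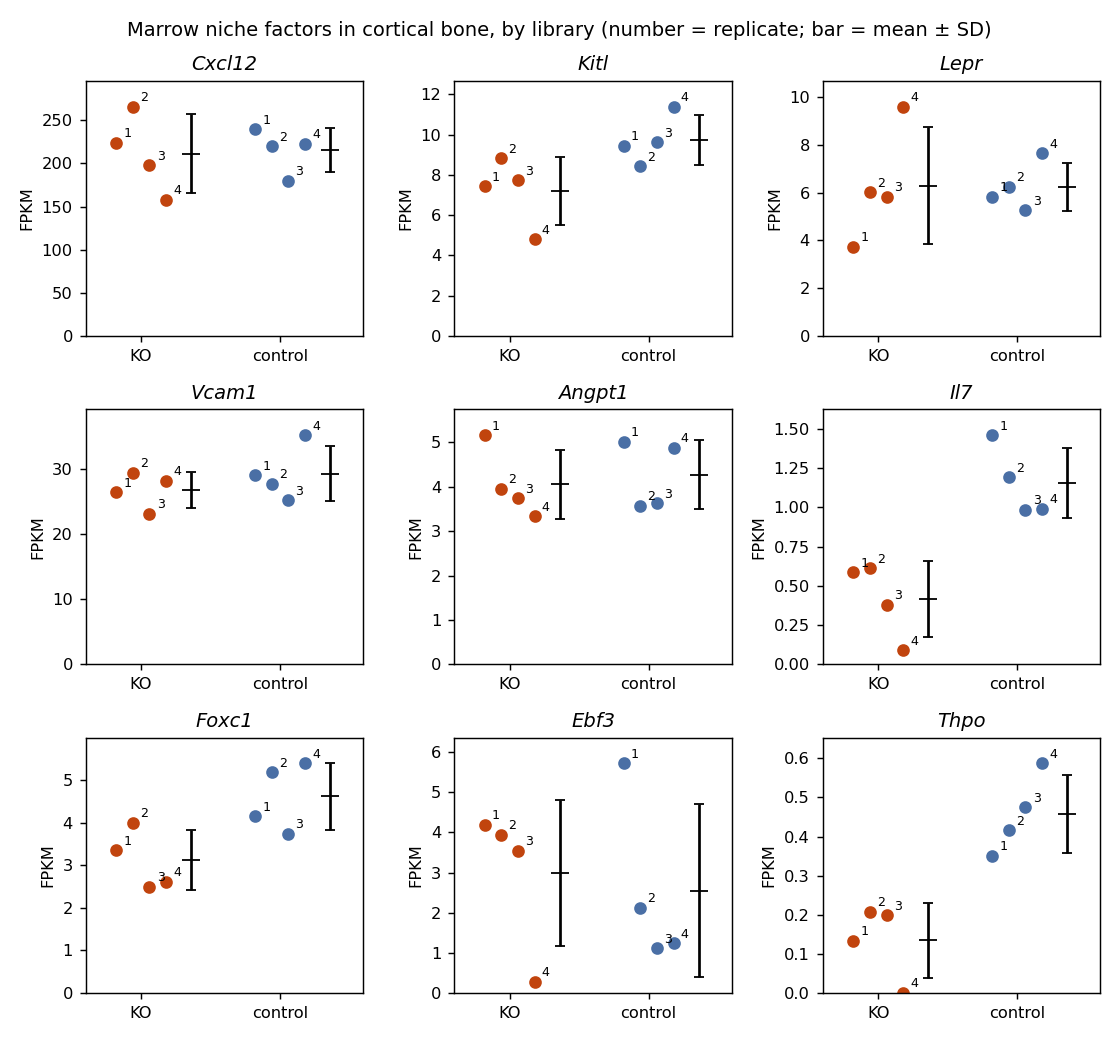
FPKM of each niche factor in the 4 KO and 4 control libraries, on linear axes from 0. Points are libraries with their replicate number and bars are means ± SD. The groups do not overlap for Il7 and Thpo, and Ebf3 spans 0.283 to 4.19 FPKM in KO and 1.12 to 5.72 in control.

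Cxcl12 (ENSMUSG00000061353, GRCm38 chromosome 6, 117168535 to 117181367, plus strand) had the highest level of the 9 genes and ranked 176 of 55401 genes by mean FPKM. Its level was 224, 266, 198 and 158 FPKM in KO 1 to 4, against 240, 220, 180 and 223 FPKM in control 1 to 4. The KO libraries held both the highest and the lowest value, and the groups overlapped. The means were 211 ± 45.2 FPKM in KO and 216 ± 25.7 FPKM in control (SD, n = 4 each). The log2 fold change was -0.0035 ± 0.14 (SE) with an edgeR adjusted p of 0.990, and its 95% interval ran from 0.798-fold to 1.25-fold. Its sign turned without control 1, control 4, KO 3 or KO 4, and without KO 4 and control 3 together. It also turned with counts divided by 4 and with a muscle score in the fit, and no alternative passed.

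Vcam1 (ENSMUSG00000027962, chromosome 3, 116109949 to 116129688, minus strand) was next in level and the least variable. It measured 26.4, 29.4, 23.1 and 28.2 FPKM in KO 1 to 4, against 29.0, 27.7, 25.2 and 35.2 FPKM in control 1 to 4. The groups overlapped, with KO 3 below all controls and control 4 above all KO libraries. With a log2 fold change of -0.10 ± 0.12, Vcam1 did not pass (edgeR adjusted p = 0.636), with a 95% interval from 0.779-fold to 1.12-fold. Vcam1 is also made by endothelial cells and macrophages, and these sources cannot be told apart in bulk tissue.

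Angpt1 (ENSMUSG00000022309, chromosome 15, 42424723 to 42676977, minus strand) encodes angiopoietin 1, which acts on the receptor TEK of vessels and stem cells. Its level was 5.16, 3.95, 3.74 and 3.34 FPKM in KO 1 to 4, against 5.01, 3.57, 3.63 and 4.87 FPKM in control 1 to 4. The highest value was KO 1 and the lowest KO 4, and the controls lay between them. Angpt1 had a log2 fold change of -0.05 ± 0.16 (edgeR adjusted p = 0.881), with an interval from 0.750-fold to 1.25-fold.

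Kitl (ENSMUSG00000019966, chromosome 10, 100015630 to 100100416, plus strand) was lower in KO by values that did not pass. It measured 7.44, 8.83, 7.74 and 4.82 FPKM in KO 1 to 4, against 9.46, 8.43, 9.62 and 11.4 FPKM in control 1 to 4. The lowest of the 8 was KO 4, and KO 2 lay above control 2, so the groups overlapped by that 1 KO library. Kitl came to -0.41 ± 0.17 on the log2 scale, where edgeR gave an unadjusted p of 0.04 and an adjusted p of 0.156. A two-sided exact permutation test on log2(FPKM + 0.5), with 70 possible assignments, gave p = 0.0571, and the smallest p it can give is 0.0286.

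Il7 (ENSMUSG00000040329, chromosome 3, 7569994 to 7613760, minus strand) separated the groups most clearly among the members with more than trace counts. Its level was 0.587, 0.611, 0.379 and 0.0902 FPKM in KO 1 to 4, against 1.46, 1.19, 0.985 and 0.991 FPKM in control 1 to 4. Every KO library lay below every control library, and KO 4 was the lowest. The means were 0.417 ± 0.241 FPKM in KO and 1.16 ± 0.223 FPKM in control (SD, n = 4 each). The edgeR log2 fold change was -1.45 ± 0.48, a fold of 0.365 with a 95% interval from 0.170 to 0.782, with an unadjusted p of 0.0154 and an adjusted p of 0.0911. Without KO 4 the log2 fold change was -1.13 and passed (edgeR adjusted p = 0.0228). With any other single library left out it did not pass, and over all 20 alternatives the adjusted p ran from 0.0138 to 0.302. The exact permutation test reached its smallest value, p = 0.0286. Il7 shares 105 exonic bases with the antisense gene Gm16685, which held 36, 0, 10 and 0 counts in KO 1 to 4 and 61, 66, 34 and 56 in control 1 to 4. How the counting treated strand is not stated, so reads of the pair cannot be told apart there. Il7 itself had 35 to 256 counts in KO and 394 to 594 in control.

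**Figure D2:**
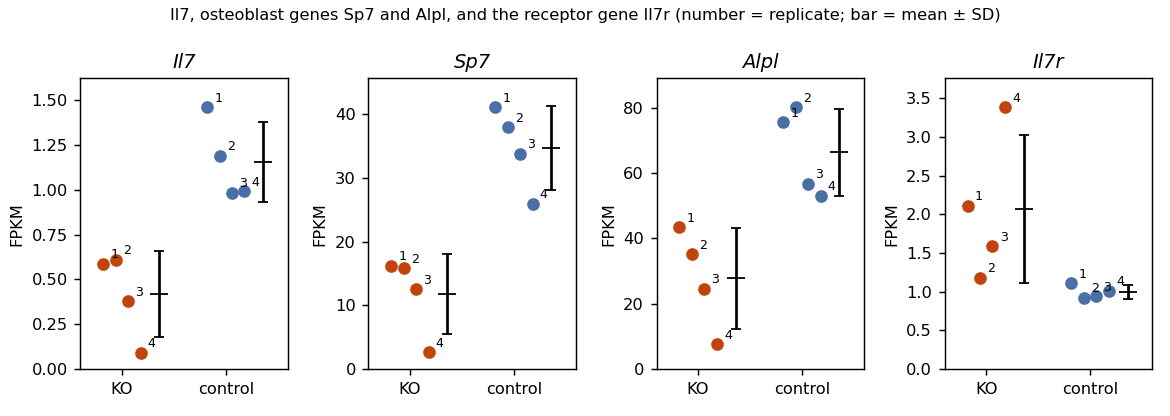
FPKM of Il7, of the osteoblast genes Sp7 and Alpl and of the receptor gene Il7r in the KO and control libraries, on linear axes from 0. Points are libraries with their replicate number and bars are means ± SD. KO 4 is lowest for Il7, Sp7 and Alpl (0.0902, 2.63 and 7.61 FPKM) and highest for Il7r (3.38 FPKM).

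Thpo (ENSMUSG00000022847, chromosome 16, 20724454 to 20734511, minus strand) encodes thrombopoietin, which comes mainly from liver and acts on megakaryocytes and stem cells. It was near the lower end of what the counts can measure, with 27, 42, 39 and 0 counts in KO 1 to 4, against 67, 76, 88 and 111 in control 1 to 4. Its level was 0.134, 0.208, 0.199 and 0 FPKM in KO 1 to 4, against 0.351, 0.416, 0.475 and 0.587 FPKM in control 1 to 4. The groups did not overlap. A count of 0 in KO 4 allows up to 12 counts, about 3 fragments. Its log2 fold change was -1.72 ± 0.85 (edgeR adjusted p = 0.231), and it was -1.31 and passed without KO 4 (edgeR adjusted p = 0.0433). The exact permutation test gave p = 0.0286, its smallest value. On the opposite strand Thpo shares 239 exonic bases with Chrd, which encodes chordin, an inhibitor of BMP proteins. Chrd held 66, 125, 128 and 25 counts in KO 1 to 4, against 208, 187, 228 and 195 in control 1 to 4 (edgeR log2 fold change -1.30 ± 0.44, adjusted p = 0.0953). The groups did not overlap for Chrd either, and without a strand setting its reads and those of Thpo cannot be told apart in the shared bases. Summed hepatocyte markers ranged from 0.524 to 15.4 FPKM in KO and 4.87 to 15.3 in control, and their part in the Thpo values was not tested.

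Lepr (ENSMUSG00000057722, chromosome 4, 101717404 to 101813667, plus strand) encodes the leptin receptor, the surface marker that names the reticular cells in the mouse. Its level was 3.73, 6.02, 5.82 and 9.60 FPKM in KO 1 to 4, against 5.83, 6.24, 5.25 and 7.64 FPKM in control 1 to 4. The lowest and the highest of the 8 values were both from KO, at KO 1 and KO 4. KO 4 was thus highest for Lepr while it was lowest for Cxcl12, Kitl, Angpt1, Il7, Ebf3 and Thpo. Lepr had a log2 fold change of 0.06 ± 0.27 (edgeR adjusted p = 0.917), with an interval from 0.680-fold to 1.59-fold. Without KO 4 the value was -0.26 (edgeR adjusted p = 0.432), and it was also below 0 on the FPKM scale with limma.

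Foxc1 (ENSMUSG00000050295, chromosome 13, 31806633 to 31812476, plus strand) was lower in KO by the smallest unadjusted p of the 9 genes. It measured 3.35, 4.00, 2.49 and 2.61 FPKM in KO 1 to 4, against 4.15, 5.18, 3.74 and 5.39 FPKM in control 1 to 4. KO 2 lay above control 3, and the other KO libraries were below all controls. Its log2 fold change was -0.54 ± 0.17, a fold of 0.689 with an interval from 0.529 to 0.896, with an edgeR unadjusted p of 0.011 and an adjusted p of 0.0759. Without KO 2 it was -0.66 and passed (edgeR adjusted p = 0.0455), and the adjusted p ran from 0.0273 with DESeq2 to 0.328 over the alternatives. The exact permutation test gave p = 0.0571. No annotated gene overlaps Foxc1, nor Cxcl12, Kitl or Lepr.

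Ebf3 (ENSMUSG00000010476, chromosome 7, 137193673 to 137314445, minus strand) had a spread within the groups larger than the difference between their means. Its level was 4.19, 3.94, 3.55 and 0.283 FPKM in KO 1 to 4, against 5.72, 2.12, 1.12 and 1.24 FPKM in control 1 to 4. Control 1 lay above all KO libraries, and KO 4 lay below all controls. The within-group SD of log2 CPM, counts scaled to library size, was 1.48 for Ebf3, higher than for 97.0% of 2790 genes within 0.5 log2 units of its mean FPKM, against 0.161 for Vcam1. Its log2 fold change was 0.26 ± 0.75 (edgeR adjusted p = 0.854), with an interval from 0.366-fold to 3.94-fold, so a change in either direction of several fold lies within it. With 1 library left out it ran from 0.035 without control 4 to 1 without control 1. Its counts ranged from 181 in KO 4 to 3791 in control 1. Its antisense neighbour Gm45278, with 355 shared exonic bases, had at most 89 counts.

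**Figure D3:**
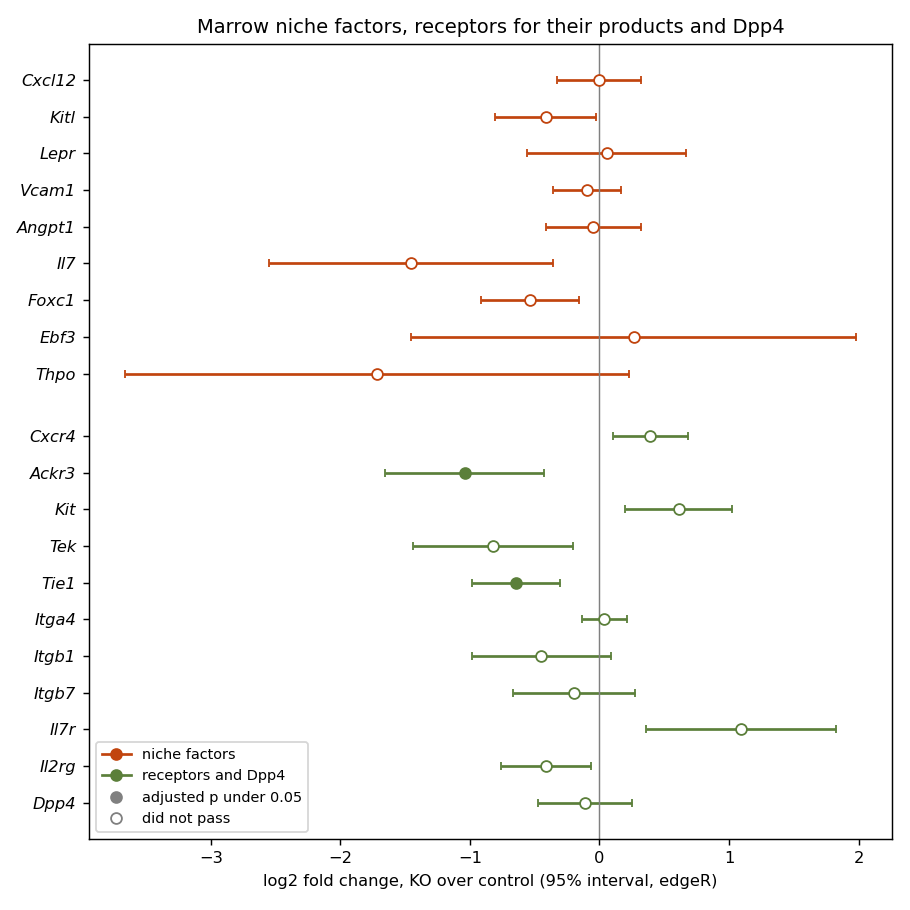
Log2 fold change of KO over control with its 95% interval from edgeR for the 9 niche factors and for the list of 11 genes that holds receptors for their products and Dpp4. Filled points passed at an adjusted p under 0.05. Cxcl12, Vcam1 and Angpt1 sit near 0 with short intervals, Ebf3 and Thpo have the widest intervals, and Ackr3 and Tie1 are filled.

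By mean FPKM the order in KO was Cxcl12, Vcam1, Kitl, Lepr, Angpt1, Foxc1, Ebf3, Il7 and Thpo, and in control Foxc1 stood before Angpt1. Cxcl12 and Vcam1 were each clear of the next gene in both groups, with no overlap of the library ranges. From Kitl down to Thpo each gene's range overlapped that of the next in KO. In control Kitl was also clear of Lepr, and Il7 (0.985 to 1.46 FPKM) was clear of Thpo (0.351 to 0.587 FPKM).

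Each member was also set against Cxcl12 within the same library, a ratio that needs no scaling between libraries and was chosen after seeing the data. Il7 made 0.185 ± 0.0901 FPKM per 100 FPKM of Cxcl12 in KO and 0.535 ± 0.0675 in control (SD, n = 4 each). Foxc1 made 1.48 ± 0.161 in KO and 2.14 ± 0.312 in control, and on this scale its groups did not overlap. Thpo made 0.0597 ± 0.0431 in KO and 0.216 ± 0.0581 in control. All 3 gave an exact permutation p of 0.0286, the smallest possible, and 0.0762 after Benjamini-Hochberg adjustment over the 8 ratios. Il7 and Thpo were already without overlap on FPKM, so their ratios repeat that result. The share of all genes that separate on this ratio was not computed, so these values have no background to stand against. Kitl made 3.40 ± 0.367 in KO and 4.56 ± 0.786 in control (exact permutation p = 0.0571, adjusted 0.114). Lepr, Vcam1, Angpt1 and Ebf3 gave p-values from 0.657 to 1.

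A list of 11 genes held 10 for receptors of these factors and Dpp4, a peptidase that cleaves CXCL12. Of the 11, 2 fell in KO and 0 rose, where 5.03% of all genes tested fell and 5.31% rose, and the median log2 fold change was -0.20. Ackr3, an atypical CXCL12 receptor that takes the ligand up, fell to 6.35, 12.2, 12.8 and 12.2 FPKM in KO 1 to 4, against 24.4, 29.9, 13.3 and 24.9 FPKM in control 1 to 4 (edgeR log2 fold change -1.04 ± 0.27, adjusted p = 0.0443). Tie1, the partner of TEK in vessels, fell to 9.14 ± 1.76 FPKM in KO, against 14.5 ± 1.35 FPKM in control (log2 fold change -0.65 ± 0.15, edgeR adjusted p = 0.031). Tek and Itgb1, outside the naming rule and chosen after their values were seen, did not pass. Tek measured 1.46 to 3.79 FPKM in KO and 4.15 to 5.86 FPKM in control, without overlap. Its log2 fold change was -0.82 ± 0.27 (edgeR adjusted p = 0.0881), and that of Itgb1 was -0.45 ± 0.24 (edgeR adjusted p = 0.256). Ackr3 no longer passed on leaving out any single library other than control 3, with edgeR adjusted p reaching 0.111. Tie1 no longer passed when control 2, control 3, control 4, KO 1 or KO 3 was omitted, reaching 0.0915 by edgeR. No gene of the list fell when control 2, control 4 or KO 3 was omitted, and 1 fell when any other library was, which without KO 1 was Il2rg. At an edgeR unadjusted p under 0.05 there were 7 of the 11 genes, against 28.1% of all genes tested. DESeq2 called 3 of the 11 lower and 2 higher, against 11.0% and 10.3% of all genes it tested.

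The receptors on blood cells did not pass, and their values lay in both directions. Il7r measured 2.11, 1.18, 1.59 and 3.38 FPKM in KO 1 to 4, against 1.11, 0.919, 0.940 and 1.01 FPKM in control 1 to 4, so its groups did not overlap while those of Il7 stood the other way round. The edgeR log2 fold change of Il7r was 1.10 ± 0.32, adjusted p = 0.0652, and it passed without KO 2 (0.0321). Kit measured 5.63, 6.22, 7.75 and 3.78 FPKM in KO 1 to 4, against 4.21, 4.20, 3.47 and 3.68 FPKM in control 1 to 4 (log2 fold change 0.61 ± 0.18, edgeR adjusted p = 0.0669). Kit overlapped through KO 4 alone, and passed without it (edgeR adjusted p = 0.0129). Cxcr4, which was outside the naming rule and chosen after its values were seen, averaged 111 ± 17.7 FPKM in KO and 86.0 ± 11.4 FPKM in control (log2 fold change 0.39 ± 0.13, edgeR adjusted p = 0.0852). Itga4, also chosen after its values were seen, had a log2 fold change of 0.04 (edgeR adjusted p = 0.782). Il2rg, the chain that pairs with IL7R, and Itgb7, a partner of integrin alpha 4, are given for the same reason. Il2rg measured 18.6, 13.4, 13.5 and 11.6 FPKM in KO 1 to 4, against 21.6, 21.5, 17.8 and 16.8 FPKM in control 1 to 4. KO 1 lay above control 3 and control 4, and the other KO libraries lay below all controls. The log2 fold change of Il2rg was -0.41 ± 0.15 (edgeR adjusted p = 0.117), and it passed without KO 1 (edgeR adjusted p = 0.0403), while that of Itgb7 was -0.20 ± 0.21 (edgeR adjusted p = 0.582).

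**Figure D4:**
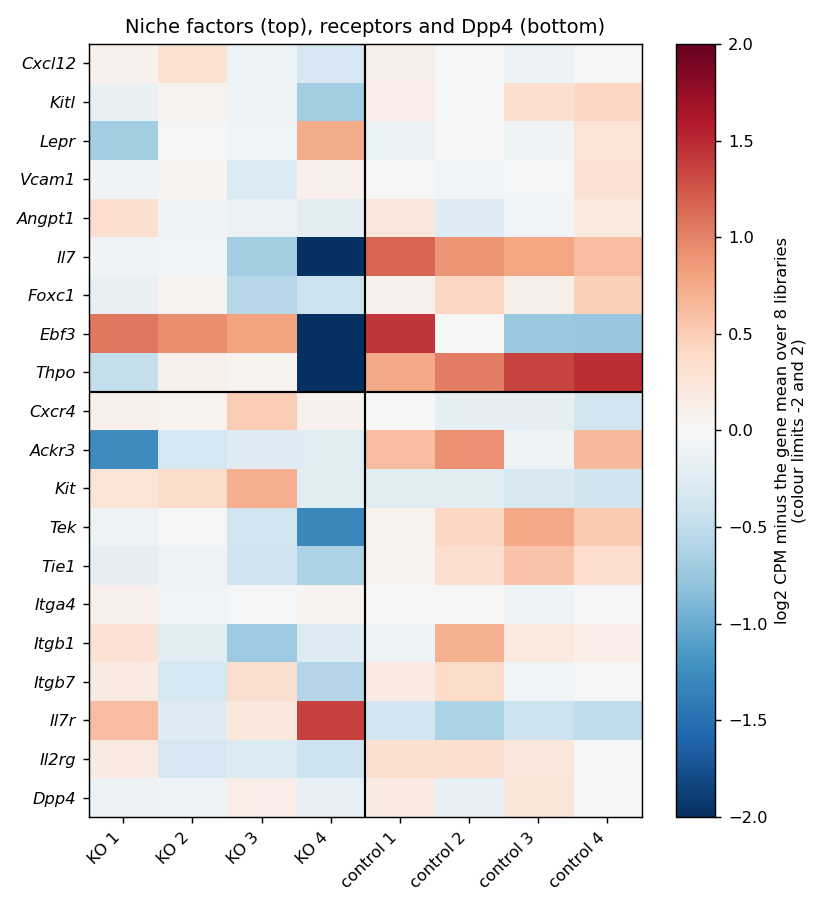
Log2 CPM of each niche factor (top) and of each receptor gene and Dpp4 (bottom) minus its mean over the 8 libraries, with KO 1 to 4 on the left and control 1 to 4 on the right. Red is above and blue below the mean of the gene, with colours limited at -2 and 2. Il7 and Thpo are blue or pale in KO and red in control, and KO 4 is the darkest library for Il7, Ebf3 and Thpo.

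Among 22 other secreted or membrane-bound factors of the niche, 2 fell in KO and 0 rose, where 5.03% of all genes tested fell and 5.31% rose, with a median log2 fold change of -0.33. Wnt5a, a non-canonical Wnt ligand, fell to 0.213 ± 0.087 FPKM in KO, against 0.652 ± 0.125 FPKM in control (log2 fold change -1.58 ± 0.34, edgeR adjusted p = 0.0262). Igf1 also fell (log2 fold change -0.77 ± 0.12, edgeR adjusted p = 0.0103). Ptn, the growth factor pleiotrophin, had values of 0.896, 0.930, 0.872 and 0.140 FPKM in KO 1 to 4, against 1.95, 1.93, 2.11 and 3.93 FPKM in control 1 to 4, and did not pass (edgeR adjusted p = 0.0646). Jag1, a Notch ligand, did not pass either (log2 fold change -0.55 ± 0.19, edgeR adjusted p = 0.101). Igf1 measured 1.96 ± 0.244 FPKM in KO and 3.42 ± 0.368 FPKM in control (SD, n = 4 each), and it passed whichever library was omitted. Wnt5a did not pass when control 2, control 3, control 4 or KO 3 was omitted (edgeR adjusted p at most 0.0756), whereas Ptn passed without KO 4 (0.0205) and Jag1 without control 1 (0.0477). Omitting any of control 2, control 3, control 4 and KO 3 left 1 gene that fell, omitting control 1 or KO 1 gave 3, and omitting KO 4 gave 5. No gene of the list rose by edgeR or DESeq2, and 6 of 22 had an edgeR unadjusted p under 0.05, a share near the 28.1% of all genes tested.

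Of 22 genes of reticular and mesenchymal stromal cells, 7 fell and 1 rose, where 5.03% of all genes tested fell and 5.31% rose, with a median log2 fold change of -0.67. Cdh11, a mesenchymal cadherin, fell to 9.57 ± 1.94 FPKM in KO, against 17.2 ± 1.16 FPKM in control (log2 fold change -0.83 ± 0.14, edgeR adjusted p = 0.0124). Cspg4, the pericyte proteoglycan NG2, fell to 1.19 ± 0.519 FPKM in KO, against 4.16 ± 0.317 FPKM in control (log2 fold change -1.78 ± 0.32, edgeR adjusted p = 0.0146). Twist1, a mesenchymal transcription factor, fell by 1.59 on the log2 scale (edgeR adjusted p = 0.0219). The riser was Hp, which encodes haptoglobin and is also made by neutrophils (log2 fold change 0.93 ± 0.20, edgeR adjusted p = 0.0253). Cdh11 and Cspg4 passed with any 1 library left out. Twist1 and Hp both missed the threshold when control 2, control 3, control 4 or KO 3 was omitted, and Twist1 also when KO 1 was (edgeR adjusted p at most 0.063 for Twist1 and 0.0718 for Hp). Omitting any of those first 4 libraries left 2 genes that fell and none that rose, and omitting KO 1 left 4 that fell. The other genes that fell with all libraries were Pdgfra, Nes, Agt and Ebf1. By sign alone 19 of the 22 were lower and 3 higher, and 14 did not pass. Among those 14, named after their values were seen, were Adipoq (edgeR adjusted p = 0.150) and Lpl (0.345), both lower. Cyp1b1, also among them, was higher (log2 fold change 0.69, edgeR adjusted p = 0.351). Which cells gave the values of this list cannot be told apart in bulk tissue. Whether the niche factors and this list differ in their change was not tested.

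Markers of other cells moved with genotype beside these values, and their counts stand against the same 5.31% of all genes rising and 5.03% falling. Neutrophil genes had 12 of 15 rising and 0 falling, and their summed level was 62900 to 75500 FPKM in KO and 32100 to 45800 in control. Osteoblast genes had 8 of 14 falling, with sums of 1150 to 2530 FPKM in KO and 4520 to 9590 in control. These sums follow the few highest genes. The largest KO sum, in KO 4, held 1880 FPKM of Spp1, and the control means of Col1a1, Sparc and Col1a2 were 2050, 1080 and 906 FPKM. Osteocyte genes had 6 of 12 falling, with sums of 134 to 487 in KO and 477 to 1130 in control. Endothelial genes, of which 3 of 14 fell (Kdr, Cldn5 and Sox18), summed to 149 to 211 FPKM in KO and 214 to 234 in control. Among genes of early B cells, which need interleukin 7 in the mouse, 4 of 10 tested fell (Dntt, Vpreb1, Igll1 and Ebf1), with sums of 22.8 to 28.9 FPKM in KO and 25.3 to 33.4 in control. Dntt, the terminal transferase of early B cells, fell to 0.201 ± 0.13 FPKM in KO, against 0.911 ± 0.153 FPKM in control (edgeR adjusted p = 0.0294). The part of these cells in the values of the niche factors was not tested.

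Those marker counts rested on single libraries to differing degrees. With 1 library left out, 6 to 13 neutrophil genes rose, 6 to 10 osteoblast genes fell and 2 to 7 osteocyte genes fell. No endothelial gene fell when control 2, control 3, control 4 or KO 3 was omitted, and 4 fell when control 1 was. No early B gene fell when control 3, control 4 or KO 3 was omitted, and 2 fell when KO 2 or KO 4 was. Dntt passed only when KO 2 or KO 4 was the library omitted, and otherwise its edgeR adjusted p reached 0.0818. The neutrophil count was lowest without KO 3 and the osteocyte count was 2 or 3 unless the omitted library was KO 4. The lists share genes, so they are not independent. Ackr3 is also in the osteocyte list, Ebf1 in the stromal and early B lists, and Phex in both bone lists. Kit is in the receptor and progenitor lists, Spp1 in the other ligand and osteoblast lists, and Adipoq in the stromal and adipocyte lists. Vcam1, a niche factor, is also in the macrophage list.

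Among 12 progenitor genes Spi1 rose, with 114 ± 9.42 FPKM in KO and 63.0 ± 9.14 FPKM in control (edgeR adjusted p = 0.00826), and 2 fell, Meis1 and Cd34 (for Cd34, log2 fold change -0.65 ± 0.17, edgeR adjusted p = 0.0443). Which cells gave the values of these genes cannot be told apart in bulk tissue. With 1 library left out 0 or 1 of the list fell, and 2 rose without KO 4, Spi1 and the receptor gene Kit given above. Cd34 passed only when control 1 was the library omitted, and otherwise its edgeR adjusted p reached 0.124. Of 12 macrophage genes 1 fell, Mertk, a receptor for dying cells (log2 fold change -0.63 ± 0.16, edgeR adjusted p = 0.0456), which likewise passed only when control 1 was omitted (otherwise up to 0.127 by edgeR). No gene passed among 10 adipocyte, 12 skeletal muscle, 11 megakaryocyte, 11 erythroid and 9 hepatocyte genes, of which 1, 0, 1, 2 and 0 had an edgeR unadjusted p under 0.05. Summed muscle markers ran from 233 to 1760 FPKM in KO and 149 to 3910 in control.

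Closeness of pattern was measured as the root mean square distance between centred log2 CPM over the 8 libraries, which is a description with no test. The distance is not scaled for spread, so it also depends on how much a gene varies. Neighbours were taken among named genes, leaving out predicted genes, pseudogenes and immunoglobulin genes, while ranks were over all genes tested. The 3 genes nearest to Cxcl12 were Htra2 (distance 0.0377), Wiz (0.064) and Ppat (0.0666). The 3 nearest to Vcam1 were Ndufaf1 (0.068), Cnst (0.0737) and Tmem68 (0.0797), and the 3 nearest to Kitl were Tpst1 (0.0909), Pnkd (0.0977) and Rin1 (0.101). None of these 9 neighbours passed the edgeR test, with adjusted p from 0.101 for Tpst1 to 0.935 for Htra2. The niche factors were not each other's nearest genes. The member closest to Cxcl12 was Angpt1, at rank 1918 of 20151 genes, and the member closest to Kitl was Foxc1, at rank 1481. The closest rank of any pair was that of Il7 seen from Thpo, 229.

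**Figure D5:**
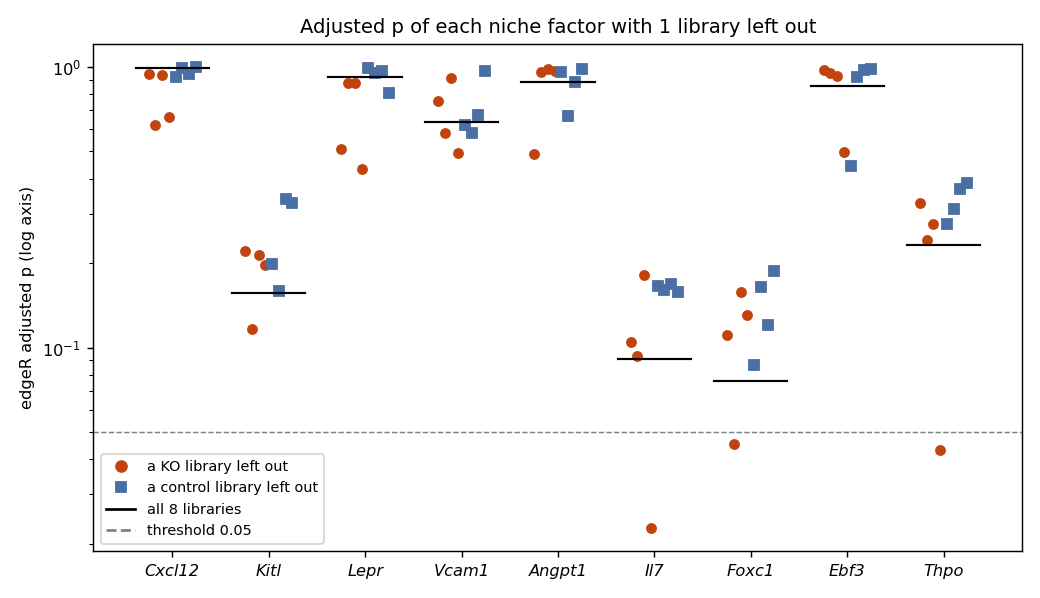
EdgeR adjusted p of each niche factor, on a log axis, with each library left out in turn (circles for KO, squares for control), and with all 8 libraries (black line). The dashed line is the threshold of 0.05. The points below it are Il7 and Thpo without KO 4 and Foxc1 without KO 2.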

How the data were processed

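RNA was measured in 4 KO and 4 control libraries of cortical bone. Trizol extraction and an Illumina NovaSeq were used, per the labels' protocols. In the 1 table that the authors deposited, every gene has an estimated count and an FPKM value for each library. The submitters' processing notes name GRCm38, HISAT2 2.0.4, StringTie 1.3.4d and DESeq2 but give no role or order. The counter and its strand setting: not given in the sources used here. The deposited estimated counts were whole numbers. Of the gene identifiers 55141 were found in GENCODE M21, 94.23% of them at the same coordinates, and no column of sample values was left unused.

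Counts were tested with edgeR 4.0.16 in R 4.3.3 (TMM scaling, filterByExpr with a minimum count of 10, quasi-likelihood test, two-sided, Benjamini-Hochberg over 20152 genes, threshold 0.05). Alternatives used DESeq2 1.42.0 and limma 3.58.1, and the scripts were tested on simulated data. Exact permutation tests used log2(FPKM + 0.5), and log2 with a pseudocount of 0.05 FPKM for ratios to Cxcl12. No fold change is given for a gene at 12 counts or fewer in every library. Chi-square per degree of freedom was 97.4 or more for every pair of libraries, so no 2 were duplicates. The floor covers counting error only. The members, lists and alternatives were chosen with earlier results of these data known, and 1 gene of the receptor and megakaryocyte lists is not reported here. Genes are named by rule: the 9 members, Ripk4, up to 4 of each pathway list and up to 2 of each marker list by smallest p, and the 3 nearest to each of the 3 members highest in FPKM. Of those marker genes the text takes the ones that bear on its results, chosen after their values were seen.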

Additional observations from a re-analysis of the deposited data

Results flagged for a closer look

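Some libraries stood apart from the other 3 of their group by a gap larger than Dixon's 95% critical value for the share of the range. Of 90 groups of 4 examined, 12 were marked, where chance marks about 5% of groups of normal values. Many of these genes were picked by smallest p in the same data, and FPKM need not be normal. The 12 therefore cannot be read as more or fewer than chance gives. The groups were those of the members and of the genes named by smallest p from each list, so other genes were not scanned. For Ebf3, KO 4 had 0.283 FPKM, against 3.55 to 4.19 in the other KO libraries. KO 4 also stood apart for Ptn, at 0.14 FPKM against 0.872 to 0.93. In control 4, Ptn was at 3.93 FPKM against 1.93 to 2.11 in the other controls. In KO 1, Ackr3 was at 6.35 FPKM against 12.2 to 12.8, and Igf1 at 2.32 FPKM against 1.8 to 1.87. KO 2 had 43.6 FPKM of Mb, a muscle myoglobin gene, against 1.45 to 8.65, and 99.5 FPKM of Spi1 against 117 to 119. KO 3 had 1.19 FPKM of Ebf1 against 1.31 to 1.32. Control 3 stood apart for Cldn5 (23.2 FPKM against 18.4 to 18.9), Fbln7 (1.78 against 2.99 to 3.04) and Adgre1 (10.1 against 13.9 to 14.3). Control 2 had 19.6 FPKM of Adipoq against 29.9 to 31.8.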

How the results depend on the processing

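Alternatives to the edgeR fit were other scalings, DESeq2, limma on FPKM, no filter, counts divided by 4, a muscle score covariate, a replicate block and left-out libraries. Kitl and Vcam1 kept direction and side of the threshold in all 20, and Il7, Foxc1 and Thpo kept direction in all 20. DESeq2 called 1916 genes higher and 2049 lower in KO, 2 members lower (Il7 -1.45, Foxc1 -0.54), 2 receptors higher and 5 other ligands lower. With limma on log2(FPKM + 0.5), 2 members fell (Il7 -0.89, Thpo -0.60) and 1 receptor, Lepr was -0.045 and Htra2 -0.023. With a pseudocount of 0.1, 1 receptor fell, Lepr was -0.052 and Htra2 -0.024. With a pseudocount of 1, 2 members fell (Il7 -0.62, Thpo -0.36) and 1 receptor, Lepr was -0.038 and Htra2 -0.021. A larger pseudocount shrinks the change of low genes. With no filter, or with the muscle score, 1 receptor fell. Cxcl12 was 0.0047 with counts divided by 4 and 0.0063 with the muscle score.

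Deviations of same-numbered KO and control libraries had correlations of 0.106, -0.172, 0.0916 and -0.055, against -0.143 to 0.189 for unlike numbers. The labels do not say whether the numbers pair libraries, and correlations this small cannot decide it. The replicate block gave 28 genes higher and 28 lower in KO, 0 in the members, receptors, other ligands and stromal genes, and -0.025 for Lepr. Without control 3 and control 4, whose mitochondrial share was high, 24 genes rose and 32 fell, 0 in those lists. Ebf3 was then -0.33, Mb 1.25, Itga4 -0.0036, Htra2 -0.010, Ndufaf1 0.0037 and Cnst 0.058. Without KO 4 and control 3, 573 genes fell, including 1 member (Il7, -1.13), and 1 receptor fell, 1 receptor rose and 0 stromal genes rose. Cxcl12 was then 0.079, Lepr -0.27, Angpt1 0.0070, Dpp4 0.016, Wiz 0.030 and Ppat 0.014. Both fits have fewer samples.

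With 1 library left out, 398 to 1096 genes rose and 323 to 1134 fell. The counts that fell were 0 to 2 members, 0 to 1 receptors, 1 to 5 other ligands and 2 to 7 stromal genes, and 0 to 1 receptors and 0 to 1 stromal genes rose. Log2 fold changes ran from -0.115 to 0.095 for Cxcl12, -0.26 to 0.25 for Lepr, -0.17 to 0.018 for Angpt1, -1.68 to -1.13 for Il7, -0.66 to -0.44 for Foxc1 and -1.99 to -1.31 for Thpo. For genes near 0 they ran from -0.081 to 0.14 for Htra2, -0.15 to 0.025 for Wiz, -0.18 to 0.042 for Ppat, -0.10 to 0.033 for Cnst and -0.079 to 0.0016 for Tmem68. The cause of these changes was not tested. Depth limits Thpo, which held 0 to 111 counts per library at about 4 counts a fragment.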

Other observations

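The named genes nearest to Il7 in pattern were looked up after the values were seen. The 3 named genes nearest to it over the 8 libraries were Sp7, the osteoblast transcription factor osterix (distance 0.144), Plxnb1, a semaphorin receptor (0.181), and Alpl, the tissue alkaline phosphatase (0.211). Sp7 measured 16.2, 15.8, 12.5 and 2.63 FPKM in KO 1 to 4, against 41.1, 38, 33.8 and 26 FPKM in control 1 to 4. Alpl measured 43.5, 35.1, 24.6 and 7.61 FPKM in KO 1 to 4, against 75.5, 80.1, 56.8 and 53.1 FPKM in control 1 to 4. The groups did not overlap for either gene, nor for Plxnb1, and KO 4 was lowest for all 3. None of the 3 passed the edgeR test with all libraries (adjusted p = 0.0687 for Sp7, 0.105 for Plxnb1 and 0.101 for Alpl), and each passed without KO 4, as Il7 did. By the same measure Cxcl12 stood at rank 5136 of 20151 genes from Il7. What these genes share other than the libraries was not tested.

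The named gene nearest to Ebf3, Deup1, lay at a distance of 0.532, against 0.0377 between Cxcl12 and Htra2. Ebf3 also varied more than Cxcl12 (within-group SD 1.48 against 0.202). These distances therefore do not compare likeness of pattern alone. The named genes nearest to Thpo were Scube2 (0.146), Dner (0.205) and Dpysl4 (0.284), all with a mean below that of Thpo in control.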
